A study of Mus musculus with 34 samples.

Results

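The 10 genes described here encode transcription factors by which hematopoietic stem cells (HSCs) are recognised: *Tal1*, *Lyl1*, *Lmo2*, *Gata2*, *Runx1*, *Erg*, *Fli1*, *Gfi1b*, *Mecom* and *Hlf*. They were chosen by name, and all 10 were among the 13108 gene rows counted and among the 12352 genes that passed the filter on low counts over all mice. RNA had been sequenced from 34 libraries, each of 100 HSCs sorted from mouse bone marrow as LSK CD48-CD150+ cells (LSK cells lack lineage markers and carry Sca-1 and c-Kit), with 2 libraries for each of 17 mice. Young *Ythdf2* CTL mice (*Ythdf2*fl/fl, n = 4) and young *Ythdf2* CKO mice (*Ythdf2*fl/fl;Vav-iCre, n = 4) were set beside *Ythdf2* CTL (n = 4) and *Ythdf2* CKO mice (n = 5) aged to 1 yr, all on a C57BL/6 background. The controls had no Cre but carried the same allele, a GFP-tagged *Ythdf2* from which Cre removes exon 2. Vav-iCre acts across the whole blood system from the fetus onwards, so every blood cell type of a CKO mouse was targeted along with its HSCs.

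*Ythdf2* encodes a cytoplasmic protein that binds N6-methyladenosine (m6A) in messenger RNA and speeds the decay of the transcripts that carry it. The transcription factors act upon one another's genes as well as on shared targets. TAL1, LYL1, LMO2, GATA2, RUNX1, ERG and FLI1 occupy many of the same enhancers in blood stem and progenitor cells and are known together as the heptad, in which LMO2 binds no DNA itself and bridges GATA and basic helix-loop-helix (bHLH) factors. GFI1B is a repressor that recruits histone demethylase and deacetylase complexes, and MECOM and HLF are factors on which the self-renewal of long-term HSCs depends.

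The libraries of each mouse were summed, and 1 library of the mouse labelled aged CTL 99 was left out for its total of 187034 counts. The totals per mouse then ran from 2218618 to 10125624 counts. *Ythdf2* itself stood at 93.4 to 123.2 CPM (counts scaled to the size of the library) in the young CTL mice and at 50.3 to 60.3 CPM in the young CKO mice, which do not overlap. In the aged mice the one labelled CTL 124 had 70.5 CPM and the one labelled CKO 121 had 188.1 CPM, whereas the other CTL mice had 142.1 to 179.3 CPM and the other CKO mice 72.4 to 87.8 CPM. These 2 mice go against their labels, although the counts also cover *Ythdf2* exons outside the deleted part. Results for aged mice are therefore given with them and, where that changes the account, without them. Y-linked transcripts showed that the sexes were mixed unevenly, with Y-linked counts in 3 of 4 young CTL mice, 1 of 4 young CKO, 1 of 4 aged CTL and 1 of 5 aged CKO mice. The 10 HSC markers used to check the sorted cells were all above the filter on low counts, with group means of 360.4 to 499 CPM for *Kit*, 193 to 643.1 CPM for *Ly6a* (which encodes Sca-1) and 62 to 110.2 CPM for *Slamf1* (which encodes CD150). *Ly6a* was higher in the young CKO mice than in the young CTL mice (643.1 against 280.3 CPM, log2 difference 1.20, edgeR adjusted p = 0.0201). *Cd48*, the product of which was gated out, had 68 and 101.5 CPM in the young groups and 11.9 and 12.4 CPM in the aged groups. The sample descriptions of all young libraries share 1 identifier and those of all aged libraries another, so age and whatever this identifier marks cannot be told apart.

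The bHLH genes are *Tal1* (chr4:115056426-115071755, + strand) and *Lyl1* (chr8:84701457-84704715, + strand), and the ETS genes are *Erg* (chr16:95359169-95586593, - strand) and *Fli1* (chr9:32422204-32542861, - strand). *Lmo2* (chr2:103957986-103981878, + strand), *Gata2* (chr6:88193891-88207032, + strand) and *Runx1* (chr16:92601466-92826149, - strand) complete the heptad. *Gfi1b* lies at chr2:28609450-28621982, *Mecom* at chr3:29951296-30548008 and *Hlf* at chr11:90336536-90390895, each on the - strand (GRCm38, GENCODE annotation).

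To compare the genes with one another, CPM was divided by the merged exon length of each gene in kb. In young CTL mice *Lmo2*, the LIM-only bridge of the heptad, was the most abundant, at 476 ± 66.2 CPM per kb (SD, n = 4). *Gfi1b* followed at 125 ± 12.1 and *Lyl1*, which encodes a bHLH factor, at 94.8 ± 8.66 CPM per kb. Each of these genes was separated from the next by its range over the mice. *Fli1*, of the ETS family, had 48.2 ± 3.38 CPM per kb, above *Gata2* at 33.8 ± 7.4. The ranges of *Gata2* and of the PAR bZIP gene *Hlf* (28.8 ± 3.85) overlapped, as did those of *Hlf* and *Tal1* (18.8 ± 5.08), the second bHLH gene. *Mecom* (5.86 ± 0.807), *Runx1* (5.6 ± 0.275) and *Erg* (4.38 ± 0.963 CPM per kb) were the lowest, and their ranges could not be separated. Over all 17 mice *Lmo2* lay at percentile 99.4 of the genes with a length, and *Erg* at 44.6. Long 3′ ends are included in the merged lengths of *Runx1* (12 kb) and *Mecom* (12.4 kb), which lowers their values on this scale if HSCs use shorter forms.

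**Figure D1:**
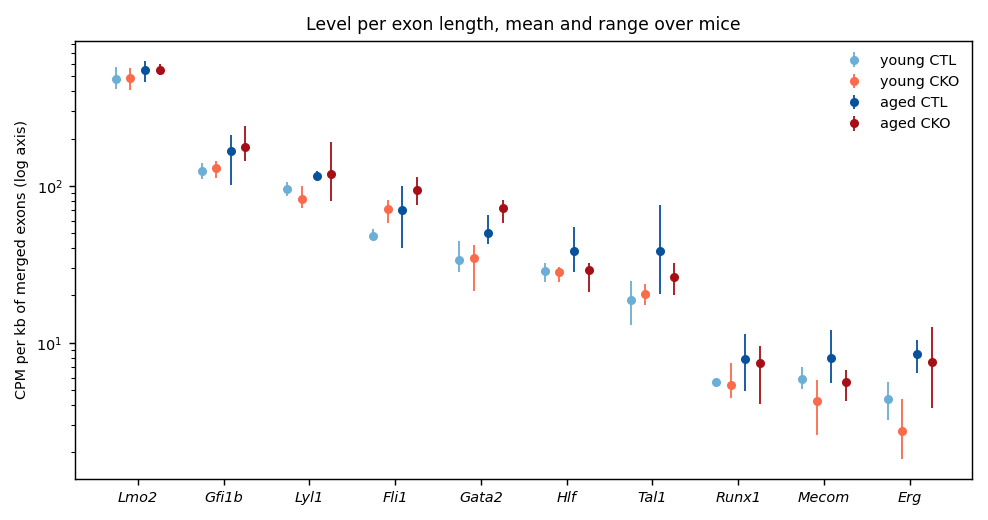
Level of each gene in CPM per kb of merged exons (log axis) in the 4 groups; points are group means and lines run from the lowest to the highest mouse. *Lmo2* lies above all others in each group, and *Runx1*, *Mecom* and *Erg* lie lowest, below 13 CPM per kb in every mouse.

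Relatives of these factors were measured as well, on the same scale of CPM per kb. Among GATA genes, *Gata1* averaged 50.7 CPM per kb over all mice beside 49.1 for *Gata2*, and *Gata3* averaged 10.6. *Runx3* and *Runx2*, at 8.85 and 4.7, lay beside 6.64 for *Runx1*. Of the ETS genes, *Elf1* (49.4), *Etv6* (31.1) and *Gabpa* (16.8) lay between *Fli1* (72.1) and *Erg* (5.86), and *Ets2* (4.02) and *Ets1* (2.49) were below *Erg*. *Lmo4* (9.67) and *Lmo1* (4.58) were far below *Lmo2* (516). *Gfi1*, the paralog of *Gfi1b* in neutrophil and lymphoid cells, averaged 2.47 CPM per kb beside 151 for *Gfi1b*. *Prdm16*, related to *Mecom*, averaged 2.18 beside 5.9, and the relatives of *Hlf*, namely *Dbp* (5.33), *Nfil3* (2.3) and *Tef* (1.37), lay below 31.1 for *Hlf*. *Tal2* and *Fev* were not tested.

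The precision of these values differed between the genes. Between the 2 libraries of a mouse the level of *Lmo2* differed by a median of 0.11 on the log2 scale. That of *Gata2* differed by a median of 0.5 and that of *Erg* by a median of 0.89. The largest gap was that of *Erg* in the aged mouse labelled CKO 121, with 4 counts (0.867 CPM) in 1 library and 97 counts (32.1 CPM) in the other. The same mouse had 23.6 and 85.9 CPM of *Runx1* in its libraries. All 16 mice with both libraries differed between them by more than counting error, so libraries were not taken as the replicates. The chi-square per degree of freedom ran from 10.2 to 56.2, and was highest in the mouse labelled CTL 124.

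**Figure D2:**
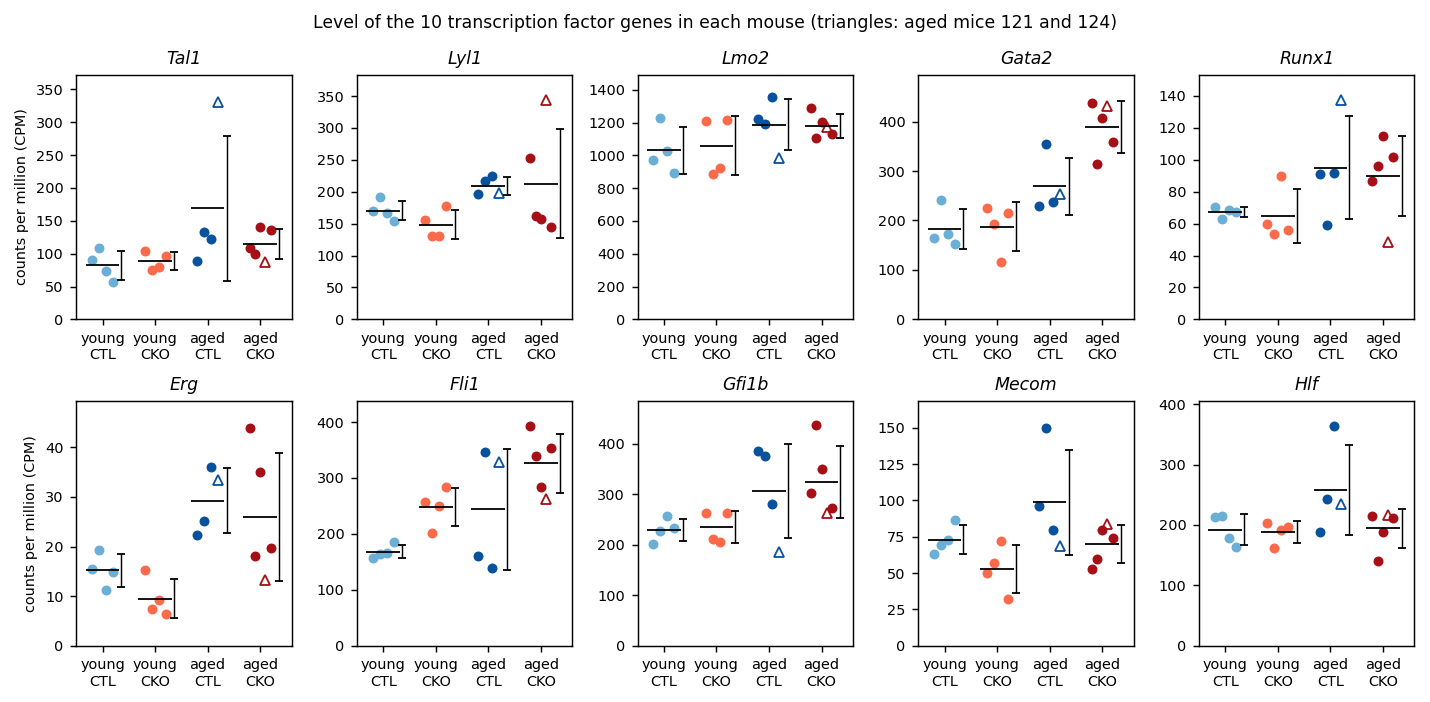
CPM of each gene in each of the 17 mice, with the group mean (black line) and SD (error bar); triangles mark the aged mice labelled CTL 124 and CKO 121. *Fli1* is higher in every young CKO mouse than in any young CTL mouse, and *Gata2* is higher in every aged CKO mouse than in any young CKO mouse.

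The comparison of young CKO with young CTL HSCs asks whether loss of *Ythdf2* changes the levels of these factors. None of the 10 genes passed the test in young mice, whereas 20 of 11526 genes did (0.174%; quasi-likelihood test of edgeR, p adjusted by Benjamini-Hochberg over all genes, threshold 0.05). *Fli1* came nearest. It was measured at 157.5, 164.6, 165.5 and 185 CPM in the CTL mice and at 202, 250.2, 256.3 and 283.7 CPM in the CKO mice. Every CKO mouse lay above every CTL mouse, a separation that 4.77% of the genes tested showed and that 1 of the 10 genes showed. The difference was 0.57 on the log2 scale (SE 0.14, 95% confidence interval 0.26 to 0.87), with an unadjusted p of 0.00125 in edgeR and an adjusted p of 0.218. The exact two-sided permutation test gave p = 0.0286, the smallest that 4 against 4 mice can give, unadjusted for the 10 genes. DESeq2 on the same mice gave 0.56 with an adjusted p of 0.0337. The likelihood ratio test of edgeR over single libraries, which counts each mouse as 2 replicates, gave 0.54 with an adjusted p of 0.0195. These were the only 2 of 11 alternatives that called *Fli1*. With the Y-linked level as a covariate it was at 0.54 (edgeR adjusted p = 0.454). The likelihood ratio test over mice gave an adjusted p of 0.0745.

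*Fli1* also has roles in megakaryocytes, and the summed level of markers of that lineage differed between the genotypes, mostly through *Pf4*. The summed level of 9 megakaryocyte and platelet genes was 580.9 to 957.8 CPM in the young CTL mice and 1158 to 3373 CPM in the young CKO mice. Of the 9 genes 1 passed the test, *Pf4* (platelet factor 4), at group means of 439.9 and 1529 CPM (log2 difference 1.80, edgeR adjusted p = 0.0488). The list median was 1.33, beside 0 over all genes. *Selp* (2.49), *Ppbp* (1.43), *Vwf* (1.42), *Itgb3* (1.33), *Gp1bb* (0.72) and *Itga2b* (0.43) had higher means in the CKO mice and *Gp9* (-0.45) and *Gp1ba* (-0.25) lower ones, without passing. None of the 9 had a group mean of 0, and *Ppbp* was the lowest. The summed level of the 10 HSC markers did not overlap between these mice either, at 1452 to 1826 CPM in the young CTL and 1952 to 2525 CPM in the young CKO mice. Of these markers 1 passed, *Ly6a* (1.20, edgeR adjusted p = 0.0201), and the list median was 0.08. The part of either list in the *Fli1* difference was not tested. In bulk samples of this kind fewer cells of a type and less RNA per cell cannot be told apart.

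*Erg* and *Mecom* had lower means in the young CKO mice, without a separation of the groups. *Erg*, the second ETS gene of the heptad, had 11.2, 14.8, 15.4 and 19.3 CPM in the CTL mice and 6.31, 7.31, 9.18 and 15.2 CPM in the CKO mice. Its highest CKO mouse lay within the CTL range, and the difference of -0.67 (95% confidence interval -1.51 to 0.16) had an adjusted p of 0.809 in edgeR. *Mecom*, which encodes EVI1 and its longer forms, had 62.9, 69, 72.9 and 86.6 CPM in the CTL mice and 32, 49.8, 57 and 71.9 CPM in the CKO mice. Here too the highest CKO mouse overlapped the CTL mice (difference -0.47, interval -0.96 to 0.03, edgeR adjusted p = 0.726). *Lyl1* differed by -0.20 (-0.53 to 0.13).

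For the other members of the group the differences lay between -0.05 and 0.12. The interval was -0.33 to 0.57 for *Tal1*, -0.40 to 0.48 for *Gata2* and -0.48 to 0.38 for *Runx1*. It was narrowest for *Lmo2* (-0.27 to 0.35), *Gfi1b* (-0.26 to 0.35) and *Hlf* (-0.34 to 0.29). Changes of 2-fold or more lie outside each of these intervals. With the Y-linked level as a covariate *Tal1* was at 0.38, *Gata2* at 0.21, *Lmo2* at 0.17 and *Hlf* at 0.09, none of them called (edgeR adjusted p of 0.801 to 0.97). Over the 10 genes the median difference was 0.01, beside 0 over all genes tested.

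**Figure D3:**
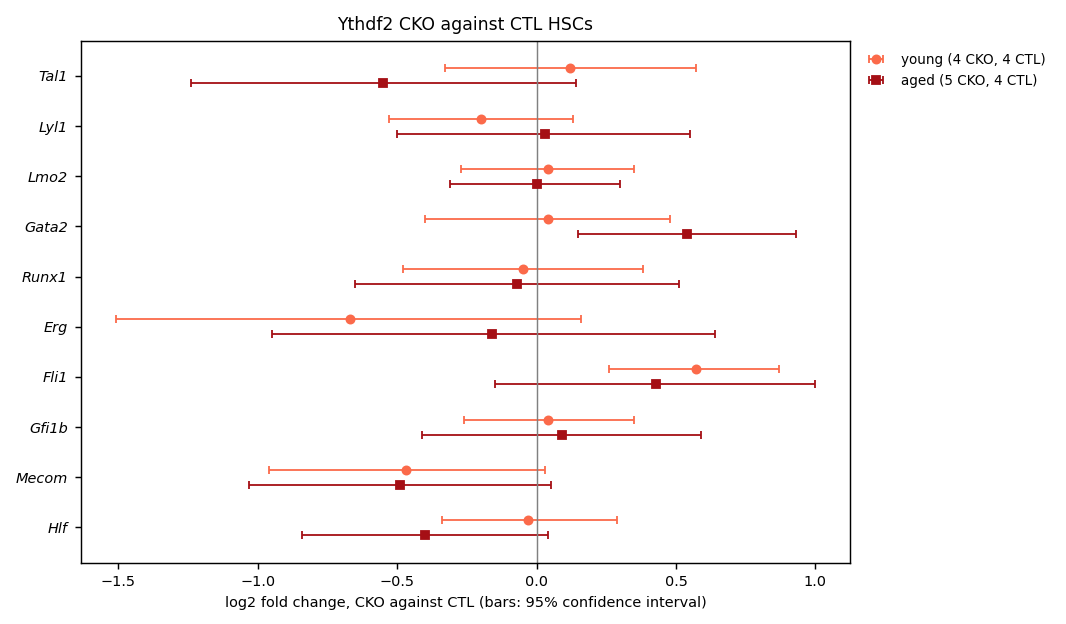
Log2 fold change of CKO against CTL HSCs for each gene, in young mice (circles) and aged mice (squares), with 95% confidence intervals from edgeR. The intervals of *Fli1* in young mice and of *Gata2* in aged mice lie above 0, and those of all other comparisons include 0.

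In aged mice no gene passed the test at all (0 of 11961 genes, 0%; 1208 genes had an unadjusted p under 0.05 in edgeR), and so none of the 10. Nor did any of the 10 separate the genotypes, which 3.48% of the genes did. *Gata2*, the zinc finger factor of the heptad, was measured at 229.9, 236.8, 254.2 and 354.1 CPM in aged CTL mice. In aged CKO mice it was measured at 314.7, 358.1, 406.9, 430.8 and 438.2 CPM. Only the mouse labelled CTL 99 reached into the CKO range. The difference was 0.54 (SE 0.18, 95% confidence interval 0.15 to 0.93), with an unadjusted p of 0.0104 and an adjusted p of 0.387 in edgeR. The exact permutation test gave p = 0.0317, where 0.00794 is the smallest possible with 5 against 4 mice. Over single libraries the likelihood ratio test gave 0.62 with an adjusted p of 0.0441.

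*Tal1*, *Hlf* and *Mecom* had lower means in aged CKO than in aged CTL mice, none past the test. *Tal1* had 89, 122.2, 132.9 and 331.1 CPM in the aged CTL mice and 87.8, 100, 108, 135.8 and 140.7 CPM in the aged CKO mice. The value of 331.1 CPM is that of the mouse labelled CTL 124, and the lowest CKO value is that of the mouse labelled CKO 121. The mouse labelled CTL 124 also had the lowest summed level of the 10 HSC markers among the aged CTL mice (1340 CPM, in a range of 1340 to 2854) and the highest of 4 tested lymphoid and MPP4 genes (199.4 CPM, in a range of 46.2 to 199.4). In the aged CKO mice those 4 genes summed to 19.6 to 67.1 CPM, highest in the mouse labelled CKO 121, and none of the 4 passed for genotype in edgeR (median -1.64, beside 0 over all genes; *Flt3* -1.39, *Notch1* -1.89, *Satb1* -3.23, *Cd48* 0.07). *Il7r*, *Dntt*, *Cd79a* and *Ccr9* did not pass the filter on low counts. Among the aged CTL mice CTL 124 also had the highest summed level of 5 tested erythroid genes (334.1 CPM, in a range of 125.9 to 334.1). It had the lowest of the granulocyte and monocyte genes (189.3 CPM) and of the endothelial genes (551.2 CPM). The part of all these markers in the *Tal1* values was not tested. The *Tal1* difference of -0.55 (edgeR adjusted p = 0.588) became 0.08 without the mice labelled CTL 124 and CKO 121. *Mecom* had 68.9, 79.5, 96.2 and 150.2 CPM in the CTL mice and 52.6, 59.7, 74.3, 79.6 and 83.8 CPM in the CKO mice. The difference of -0.49 (-1.03 to 0.05, edgeR adjusted p = 0.526) became -0.22 without CTL 99, the highest mouse, and -0.71 without CTL 124 and CKO 121 (edgeR adjusted p = 0.709 and 0.276). *Hlf* had 188.9, 234.6, 243.1 and 364.5 CPM in the CTL mice and 141.1, 188.6, 211.7, 215.7 and 216.2 CPM in the CKO mice. Its difference was -0.40 (-0.84 to 0.04, edgeR adjusted p = 0.526), and -0.19 without CTL 114, the highest mouse.

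*Fli1* in aged CTL mice fell into a low pair at 139.7 and 160 CPM and a high pair at 328.4 CPM (the mouse labelled CTL 124) and 346.6 CPM (CTL 99). The aged CKO mice, at 262, 283.9, 338.8, 353.2 and 392.6 CPM, overlapped with the high pair, and the difference was 0.43 (-0.15 to 1.00, edgeR adjusted p = 0.627). It moved with single CTL mice, from 0.23 without CTL 114 and 0.26 without CTL 65 to 0.64 without CTL 99, and was 0.67 (edgeR adjusted p = 0.374) without CTL 124 and CKO 121. *Erg* differed by -0.16 (-0.95 to 0.64), *Gfi1b* by 0.09 (-0.41 to 0.59), *Runx1* by -0.07 (-0.65 to 0.51) and *Lyl1* by 0.03 (-0.50 to 0.55). *Lmo2*, at 985.8 to 1358 CPM in CTL and 1103 to 1291 CPM in CKO mice, had a fold change of 0.998 (0.808 to 1.23). The summed megakaryocyte and platelet genes had 646.4 to 919.2 CPM in the aged CTL and 888.4 to 2713 CPM in the aged CKO mice, with the mouse labelled CKO 121 the lowest of the latter.

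Whether the genotype effect differed between the ages was tested by an interaction term over all 17 mice. No gene passed (0 of 12352, 0%; 588 had an unadjusted p under 0.05 in edgeR). The adjusted p of all 10 genes was 0.999. *Tal1* had the lowest value, -0.68 (-1.54 to 0.18), and *Erg* (0.51, -0.60 to 1.61) and *Gata2* (0.50, -0.09 to 1.09) the highest. The value of *Tal1* rested on the mouse labelled CTL 124, and was -0.11 without it and -0.03 without both mice that go against their labels. For *Fli1* the value was -0.14 (-0.80 to 0.53). The widest interval, that of *Erg*, spanned 2.2 on the log2 scale.

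The comparison of aged with young mice gave more calls among all genes, and 3 of the 10 genes rose, each in 1 genotype only. It was made within each genotype from 1 fit over all 17 mice, and it holds any difference in the handling of young and aged libraries along with age. In CTL mice 828 of 12352 genes rose (6.7%) and 1 of the 10 did, *Tal1*. In CKO mice 891 genes rose (7.21%) and 2 of the 10 did, *Gata2* and *Erg*. None of the 10 fell, while 8.07% of the genes tested fell in CTL mice and 9.34% in CKO mice. All 10 had a log2 fold change above 0 in both genotypes, as had 55.8% of the genes tested in CTL mice and 54% in CKO mice. The median over the 10 genes was 0.47 in CTL and 0.44 in CKO mice, beside 0.11 and 0.07 over all genes tested. Such a shift was not particular to them. The medians were 0.48 and 0.3 for 16 paralogs, 0.37 and 0.38 for the HSC markers and 0.53 and 0.47 for 21 cofactor genes. For 18 reported targets of the factors they were 0.18 and 0.07. The young and aged mice of a genotype are also those of the genotype comparisons, so the 2 kinds of comparison are not independent.

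*Gata2*, which is tied to HSC quiescence and is replaced by *Gata1* on erythroid maturation, was measured at 116.1, 193.4, 214.7 and 226.2 CPM in young CKO mice. The aged CKO mice, at 314.7 to 438.2 CPM, all lay above them. The rise was 1.05 on the log2 scale (95% confidence interval 0.64 to 1.47, p = 2.65e-05, adjusted p = 0.00154 in edgeR). The exact permutation p of 0.00794 is the smallest that these group sizes allow. A complete separation of this kind was seen for 1 of the 10 genes and for 20.4% of the genes tested. The call was kept when each of the 17 mice was left out in turn, at 0.87 to 1.15. Over single libraries the ages overlapped. Library B of young CKO mouse 1 had 308.6 CPM, where its library A had 162.3 CPM. The aged CKO libraries had 300.9 to 567.2 CPM. In every young mouse of either genotype library B was above library A for *Gata2*, and the source of this was not tested. In CTL mice *Gata2* went from 152.8, 164.5, 172.1 and 241.4 CPM in the young to 229.9 to 354.1 CPM in the aged mice. That difference of 0.55 (0.13 to 0.98) had an adjusted p of 0.0726 in edgeR. The age effects of the genotypes were not shown to differ, since the interaction term for *Gata2* is the one given before.

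*Erg*, which maintains the HSC pool, had 6.31 to 15.2 CPM in young CKO mice and 13.3, 18, 19.8, 35 and 43.8 CPM in aged CKO mice. The lowest aged mouse, the one labelled CKO 121, lay below the highest young mouse. The rise was 1.45 (0.67 to 2.24, adjusted p = 0.0119 in edgeR, exact permutation p = 0.0238), and it too was called in each of the 17 fits without 1 mouse, at 1.17 to 1.77. In CTL mice *Erg* had 22.2, 25.2, 33.5 and 36 CPM with age, above all the young CTL mice. Its log2 fold change there was 0.95 (0.15 to 1.75, adjusted p = 0.103 in edgeR, exact permutation p = 0.0286).

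*Tal1*, the bHLH factor on which the formation of all blood cells depends, had 56.3, 74, 89.7 and 108.4 CPM in young CTL mice. It rose by 1.04 with age in CTL mice (0.41 to 1.68, adjusted p = 0.0262 in edgeR), but the groups overlapped and the exact permutation p was 0.0857. The call rested on single mice. Without the mouse labelled CTL 124 the value was 0.46 (edgeR adjusted p = 0.169), and without both mice that go against their labels it was 0.48 (edgeR adjusted p = 0.136). The call was also lost without young CTL mouse 1 (1.09, edgeR adjusted p = 0.0532), 3 (0.99, 0.0744) or 4 (0.90, 0.0982). In CKO mice, from 75.7, 80, 96.6 and 103.4 CPM in the young, the difference was 0.36 (-0.23 to 0.96, edgeR adjusted p = 0.424).

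Among the genes not called, *Lyl1* in CTL mice went from 154, 166.7, 170.2 and 191.5 CPM in the young to 197, 197.9, 217.1 and 225.4 CPM in the aged mice. The groups did not overlap, with a difference of 0.29 (-0.16 to 0.75, edgeR adjusted p = 0.393). *Lyl1* and *Erg* were the 2 of the 10 genes that separated young from aged CTL mice, as 17.1% of the genes tested did. In CKO mice *Lyl1* had 0.52 (0.08 to 0.95, edgeR adjusted p = 0.0997), and 0.27 without the mouse labelled CKO 121, whose 344.4 CPM was the highest. With libraries as the replicates it was called in all 3 fits made (0.51, edgeR adjusted p of 0.015 to 0.0213). *Runx1*, the Runt domain factor needed for the first HSCs to form, had 0.50 in CTL and 0.47 in CKO mice (edgeR adjusted p = 0.198 and 0.207). *Fli1* had 0.53 and 0.39, *Gfi1b* 0.41 and 0.46, *Mecom* 0.43 and 0.41 and *Lmo2* 0.20 and 0.16, with adjusted p values of 0.113 to 0.478 in edgeR. *Hlf* had 0.42 in CTL (0.03 to 0.82) and 0.05 in CKO mice (-0.33 to 0.42). Without the 2 mice that go against their labels, *Runx1* (0.62, edgeR adjusted p = 0.0287) and *Gfi1b* (0.53, edgeR adjusted p = 0.0282) were also called in CKO mice. In CTL mice the called gene then changed from *Tal1* to *Gfi1b* (0.59, edgeR adjusted p = 0.0235).

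**Figure D4:**
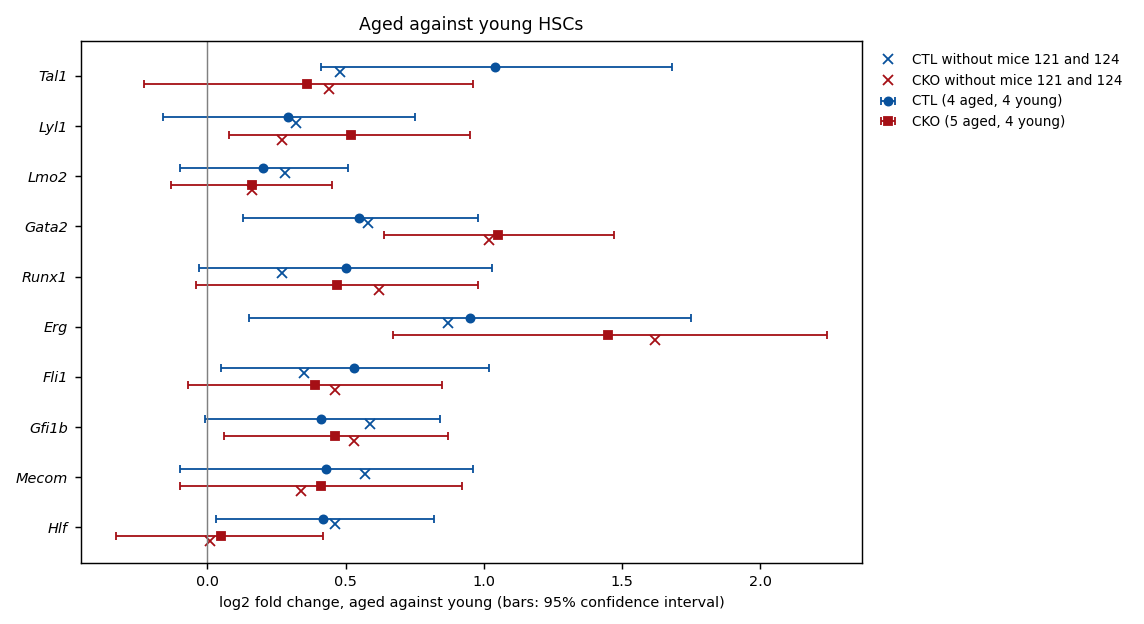
Log2 fold change of aged against young HSCs in CTL (circles) and CKO mice (squares), with 95% confidence intervals from edgeR; crosses are the values without the mice labelled CTL 124 and CKO 121. All points lie above 0, and the largest shift on leaving those mice out is that of *Tal1* in CTL mice, from 1.04 to 0.48.

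Markers of other cell types moved with age as well. *Cd48* fell by 2.48 in CTL mice and fell by 3.04 in CKO mice (edgeR adjusted p = 0.0273 and 0.00489). The myeloid progenitor gene *Ms4a3* also fell in both, with log2 fold changes of -3.19 and -1.79, and *Car1* (-3.32) and *Cpa3* (-1.87) fell in CKO mice. Of the 9 megakaryocyte and platelet genes 2 rose in CTL and 4 in CKO mice, with list medians of -0.09 and 0.78. *Selp* (3.35 and 2.20) and *Vwf* (1.80 and 1.48) rose in both genotypes, whereas *Pf4* (-0.92 and -0.67), *Ppbp* (-0.18 and -1.33) and *Itgb3* (-0.04 and -0.70) had values below 0 and did not pass. The endothelial gene *Tie1* rose in both (1.30 and 0.95). *Itga2b* (1.35) and *Gp9* (0.83) were called in CKO mice, and the interaction term was called for no gene. The endothelial marker *Cdh5* had group means of 0.117 to 5.63 CPM. The part of any of these in the rise of *Tal1*, *Gata2* or *Erg* was not tested.

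For the 3 genes called higher with age, each in 1 genotype only, the 250 bases before the most upstream transcription start are shown. They are from RefSeq (GRCm38.p6) and run 5′ to 3′ on the strand of the gene. These bases are shown because the heptad factors are known to bind at one another's genes. Capitals mark matches on either strand to GATAA (GATA factors), CANNTG (the E-box of bHLH factors), GGAAG (ETS factors) or TGTGGT (RUNX1). *Tal1* lies on the + strand (chr4:115056176-115056425), *Gata2* on the + strand (chr6:88193641-88193890) and *Erg* on the - strand (chr16:95586594-95586843).
Tal1: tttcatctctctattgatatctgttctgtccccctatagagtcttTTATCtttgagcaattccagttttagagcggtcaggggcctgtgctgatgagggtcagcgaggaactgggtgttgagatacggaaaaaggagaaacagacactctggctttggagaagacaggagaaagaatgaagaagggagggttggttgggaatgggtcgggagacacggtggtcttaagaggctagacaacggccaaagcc
Gata2: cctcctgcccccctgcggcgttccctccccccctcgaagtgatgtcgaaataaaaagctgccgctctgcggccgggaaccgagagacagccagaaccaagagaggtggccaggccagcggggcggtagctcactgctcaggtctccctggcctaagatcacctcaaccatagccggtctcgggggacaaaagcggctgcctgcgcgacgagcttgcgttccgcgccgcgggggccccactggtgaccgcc
Erg: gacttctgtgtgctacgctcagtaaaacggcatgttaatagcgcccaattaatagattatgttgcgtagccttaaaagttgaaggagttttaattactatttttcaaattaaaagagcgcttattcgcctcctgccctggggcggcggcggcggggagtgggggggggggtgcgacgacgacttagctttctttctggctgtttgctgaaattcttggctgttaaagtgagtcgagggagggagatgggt
The *Tal1* window holds 1 match, to GATAA on the opposite strand, 201 to 205 bases before the start. The windows of *Gata2* and *Erg* hold none of the 4 motifs, which says only that these letters are not in these bases. Of 12427 windows of the same length before the starts of tested genes, 15% hold GATAA, 57.4% CANNTG, 69% GGAAG and 11.1% TGTGGT. The *Gata2* window is rich in G and C (67.2%, beside a median of 59.6% over those windows), and the *Tal1* and *Erg* windows each have 48.8%. RefSeq windows were matched for 8 of the 10 genes. GATAA was also found before *Gfi1b*, before both *Mecom* starts and before the most downstream start of *Erg*. CANNTG was found before *Lyl1*, *Hlf*, *Gfi1b*, the upstream *Mecom* start, the most downstream *Erg* start and, at 3 places, the upstream start of *Runx1*. GGAAG was found before the second *Tal1* start, both downstream *Erg* starts, the upstream *Runx1* start, the downstream *Mecom* start, *Hlf* and, at 2 places, *Lyl1*.

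Because YTHDF2 reads m6A, the letters GGACT, a common form of the m6A consensus, were counted on the sense strand of the longest coding transcript of each gene. *Fli1*, the gene nearest to a call for genotype in young mice, had 7 matches in 3318 bases. At 2.11 per kb it lay at percentile 90.5 of 11830 genes, whose median was 1.04 per kb. *Lyl1* followed with 1.67 per kb, and *Gata2* had the fewest, 1 match or 0.28 per kb (percentile 9.15). The other 7 genes had 0.712 to 1.24 per kb, among them *Hlf*, which also had 7 matches, in 5642 bases. Between the genotypes in young mice *Hlf* differed by -0.03 and *Lyl1* by -0.2. A link of these counts to the genotype effect was not tested. No m6A was measured in these libraries, and a match is not a site. The paper mapped m6A in c-Kit+ cells of control mice, and those data were not used here. In the *Fli1* transcript 1 match lies in the 5′ UTR, 3 in the coding part and 3 in the 3′ UTR. They are given with 9 bases on each side and GGACT in capitals.
Fli1 match 1 (5′ UTR, base 125): agagagataGGACTtcctccccg
Fli1 match 2 (coding, base 395): aaatggacgGGACTattaaggag
Fli1 match 3 (coding, base 630): gtctccggtGGACTgcagtgtca
Fli1 match 4 (coding, base 906): gaacaaggaGGACTtcctccgag
Fli1 match 5 (3′ UTR, base 1805): ggatactctGGACTctaaaaggc
Fli1 match 6 (3′ UTR, base 2154): atgaatcatGGACTtgaccaggg
Fli1 match 7 (3′ UTR, base 2228): atcttcggaGGACTcaattcagt

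The cofactors through which these proteins act gave no call for genotype and several with age. Of 21 partner and cofactor genes, all tested, none passed for genotype at either age (edgeR; medians of -0.03 and 0.07, beside 0 for all genes). With age 8 rose and 1 fell in CTL mice (median 0.53), and 6 rose and 1 fell in CKO mice (median 0.47). Over all genes tested 6.7% rose and 8.07% fell in CTL mice (median 0.11), and 7.21% rose and 9.34% fell in CKO mice (median 0.07). *Ldb1*, which joins LMO2-bound complexes at distant enhancers, rose by 0.80 in CTL (from 77.4 to 134.6 CPM) and by 0.77 in CKO mice (from 75.9 to 129.8 CPM). *Ssbp4*, of the family that stabilises LDB1, rose by 0.98 and 1.41. *Ctbp1*, a corepressor, rose by 0.76 and 1.10. In CTL mice *Cbfa2t3* (1.05), which encodes the corepressor ETO2, and *Ssbp3* (0.89) were also called. In CKO mice *Ctbp2* (1.49) and *Zfpm1* (1.00), which encodes the GATA partner FOG1, were called. The gene that fell was the deacetylase gene *Hdac2* in CTL mice (-0.50, edgeR adjusted p = 0.038) and *Ssbp2* in CKO mice (-0.57, edgeR adjusted p = 0.0303). For genotype in aged mice 0 to 3 were called higher and 0 to 3 lower over the alternatives, and in young mice none under any. With age the count of cofactors called higher ran from 2 to 9 in CTL and from 4 to 8 in CKO mice.

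Of the 16 paralogs tested none passed for genotype (edgeR), and *Gata3* rose with age in both CTL (1.43) and CKO mice (1.57). *Prdm16* (1.42) and *Ets2* (1.15) rose in CTL mice. The most abundant, *Elf1* and *Etv6*, had 315.8 and 159.4 CPM in young CTL mice and 314.5 and 212.3 CPM in aged CTL mice. Of the reported targets of these factors, none of the 18 tested in young mice and none of the 17 tested in aged mice passed for genotype (edgeR; in aged mice 0 to 2 in each direction over the alternatives), and *Eng* (1.15) and *Cdkn1c* (1.39) were among those that rose in CTL mice with age. In CKO mice *Eng* (1.10), *Itga2b* (1.35), *Zfpm1* (1.00) and *Kit* (0.47) rose and *Hhex* fell by 0.76. *Nfe2* and *Angpt1* were the most abundant, at 738.3 and 632.9 CPM in young CTL mice, with no call in any comparison.

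Finally, the 10 genes were compared with one another over the mice after the mean of each group had been subtracted. The correlations are given as descriptions over 17 mice that share library preparation and composition. The 45 pairs had a median Pearson r of -0.03, and 21 were above 0. *Lmo2* and *Gata2* had the highest (0.56), followed by *Lmo2* and *Hlf* (0.52). *Lyl1* and *Runx1* (-0.68) and *Gata2* and *Runx1* (-0.59) had the lowest. Many pairs, among them those with *Tal1*, moved when the 2 mice that go against their labels were left out. The r of *Tal1* with *Fli1* went from 0.50 to 0.14, with *Runx1* from 0.47 to -0.17 and with *Gfi1b* from -0.54 to -0.17. In the other direction, the r of *Tal1* with *Lmo2* went from -0.03 to 0.63, with *Gata2* from 0.26 to 0.61 and with *Hlf* from 0.23 to 0.65. Without these mice *Lyl1* and *Lmo2* also went from 0.44 to 0.71, *Gata2* and *Runx1* from -0.59 to -0.79, and *Runx1* and *Fli1* from 0.09 to -0.60.

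**Figure D5:**
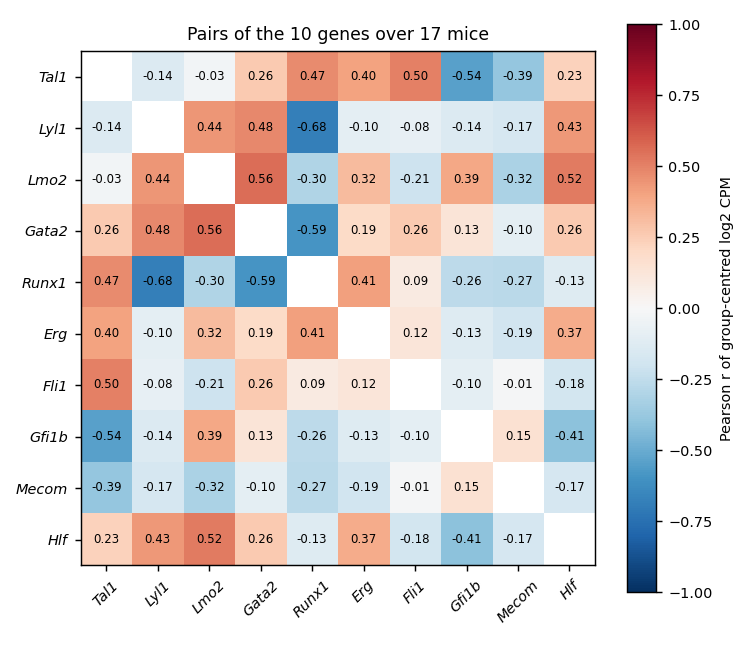
Pearson r of log2 CPM, after subtraction of group means, for each pair of the 10 genes over 17 mice; red is positive and blue negative. The values run from -0.68 for *Lyl1* and *Runx1* to 0.56 for *Lmo2* and *Gata2*; the mice labelled CTL 124 and CKO 121 are included, and without them the pairs among *Tal1*, *Lmo2* and *Gata2* have 0.61 to 0.63.

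Among 9509 genes with a mean of at least 10 CPM, the one most like each factor over the mice, by the same measure, was in each case outside the group. For *Tal1* it was *Tmem164* (r = 0.92), followed by *Klf9* and *Yy1*. *Gata2* was most like *Lrp10* (0.91), *Ubac2* and *Flywch1*, and *Ankrd49* and *Psmb7* (0.90 each) were among the genes most like *Runx1*. For *Erg* the nearest were *Dnajc1* (0.89), *Bcl6* and *Ccdc112*, and for *Fli1* they were *Nsdhl* (0.84), *Map3k20* and *Ahr*. *Gfi1b* was nearest to *Fig4* (0.90), *Tcta* and *Sdr42e1*, *Lyl1* to *Bak1* (0.87), *Zfand3* and *Vat1*, and *Lmo2* to *Raver2*, *Ndn* and *Gtpbp10* (0.83 each). The r of the nearest gene was lowest for *Mecom* (*Tnfsf9*, 0.81), for which *Otos* and *Dhx16* came next. For *Hlf* the nearest was *Phf23* (0.82), before *1700017B05Rik* and *Tbc1d22a*. With so many genes and 17 mice, high values arise among unrelated genes, and nothing is read from them about shared control.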

How the data were processed

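RNA-seq libraries of 100 HSCs had been made with SMART-Seq2. The authors aligned reads with HISAT2 to mm10 and counted them with Rsubread, and they deposited raw counts per gene without normalization. The annotation, strand setting and handling of multi-mapping reads are not given in the sources used here. The 2 libraries of a mouse were summed, and the mouse was the replicate; 1 library was left out. Totals ran from 2218618 to 10125624 counts per mouse, and 3 counts equal 0.292 to 1.24 CPM; such limits cover counting error only. Genes passing filterByExpr (minimum count 10, minimum total 15) were fitted with edgeR 4.0.16 (quasi-likelihood test, TMM, Benjamini-Hochberg over all genes tested, threshold 0.05), for each age apart and, for age and interaction, over 17 mice. SEs were derived from F. CPM was scaled by TMM over 17 mice, and permutation tests used log2 CPM (prior count 2). DESeq2 1.42.0 and the other settings are in the closing section. R 4.3.3 was used, and the tests were tested on simulated data. All 10 genes are named in each comparison. Genes of the other lists are named where called (at most 5 per list and comparison) or among the 2 most abundant, and the 3 genes most like each member are named, except for a few results that are not reported here. The genes, lists and markers were chosen with earlier results of these data known, so no list is independent evidence. A gene counted without strand could share reads with an overlapping gene; at most 0.9% of a member's exon bases overlap another gene.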

Additional observations from a re-analysis of the deposited data

Results flagged for a closer look

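In young CKO mice, *Runx1* stood at 89.91 CPM in mouse 3, apart from the other 3 mice of its group, of which the nearest had 59.72 CPM. The gap was 0.83 of the range of the group. Of 40 groups examined (10 genes in 4 groups), 1 held such a distant mouse, and chance gives about 2.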

How the results depend on the processing

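*Erg*, at 6.31 to 43.8 CPM per mouse, had the largest median gap between the 2 libraries of a mouse (0.89 on the log2 scale). With 4 or 5 mice a group, intervals reached a width of 1.67 on the log2 scale in young and 1.59 in aged mice. Values are log2 fold changes with edgeR, and the cause of a change was not tested. *Gata2* and *Erg* were called with age in CKO mice under all 11 alternatives and in all 17 fits without 1 mouse. For genotype in young mice 1 gene, *Fli1*, was called by the likelihood ratio test over libraries and 1, again *Fli1*, by DESeq2. In aged mice 1, *Gata2*, was called by that likelihood ratio test. For age in CTL mice the count of 1 became 2 with the likelihood ratio test over libraries, 2 with DESeq2, 3 with a Y-linked covariate, and 0 to 2 without 1 mouse. Without mice 121 and 124, or without CTL 124 alone, it stayed at 1, but the gene was *Gfi1b* in place of *Tal1*. For age in CKO mice the count of 2 became 4 without mice 121 and 124, 3 (with *Lyl1*) in the 3 fits over libraries and 3 (with *Gfi1b*, edgeR adjusted p = 0.0494) without CTL 124.

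Direction turned only for differences that were not called. In young mice the Y-linked covariate gave *Hlf* 0.09. Leaving out 1 mouse gave -0.03 to 0.29 for *Tal1*, -0.04 to 0.14 for *Lmo2*, -0.06 to 0.21 for *Gata2*, -0.25 to 0.03 for *Runx1*, -0.02 to 0.10 for *Gfi1b* and -0.10 to 0.04 for *Hlf*. In aged mice the values without mice 121 and 124 were 0.08 for *Tal1*, -0.25 for *Lyl1*, 0.30 for *Runx1*, 0.07 for *Erg* and -0.03 for *Gfi1b*. *Lmo2* was 0 with the Y-linked covariate and 0.05 with library 99 B kept. Leaving out 1 aged mouse gave -0.22 to 0.14 for *Lyl1*, -0.10 to 0.06 for *Lmo2*, -0.25 to 0.14 for *Runx1*, -0.43 to 0.01 for *Erg* and -0.10 to 0.21 for *Gfi1b*. The interaction of *Fli1* was 0.12 without mice 121 and 124 and -0.33 to 0.07 without 1 mouse. *Hlf* with age in CKO mice ran from -0.02 to 0.13 without 1 mouse.

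The young mice share numbers 1 to 4 across genotypes, and same-numbered mice did not deviate together (r of 0.04, -0.04, 0.05 and 0). With the number as a replicate block 0 of the 10 genes were called, as without it. The library letter as a replicate block also gave 0 in young and 0 in aged mice.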
